A study of Mus musculus with 2 samples.

Results

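The heme biosynthesis genes examined here were Alas1, Alas2, Alad, Uros, Urod, Cpox, Ppox and Fech, which encode enzymes of the pathway, and Abcb10, which encodes a mitochondrial transporter that serves it. They were chosen by symbol, as a list drawn up with earlier results of these data known, and all 9 were among the 13137 genes that could be compared in the series. RNA of the whole embryo proper at E8.5 (embryonic day 8.5) was hybridised to 1-colour oligonucleotide arrays, with 1 array for a pool of 42 wild-type embryos and 1 array for a pool of 45 embryos homozygous for the mDom mutation, matched by litter. mDom (p400/mDomino, present symbol Ep400) encodes an ATPase of a chromatin-remodelling complex, and the design asks which transcripts differ in embryos that carry the mutation on both alleles. No other allele, strain or treatment is given for either pool in the sources used here. With 1 array per pool no value has a replicate error, no test was possible, and precision is limited by the number of arrays.

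Heme is an iron-holding ring that carries oxygen in globin and electrons in cytochromes. Its synthesis starts in the mitochondrion, where glycine and succinyl-CoA are joined to aminolevulinate, passes through the cytosol, and ends in the mitochondrion with the insertion of iron. Every cell with mitochondria makes some heme, but developing red cells make by far the most, and they use their own form of the first enzyme, Alas2, in place of the widely expressed Alas1. At E8.5 the primitive red cells, formed in the yolk sac and loaded with embryonic globins, begin to enter the embryo.

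Intensities are given in units of each array's median, and values at or under a floor of 0.541 were treated as too dim to order. Ratios are mDom-/- over wild-type on the log2 scale, so that -1 is 2-fold lower, and a gene was called apart when it differed at least 2-fold. The internal yardstick was the disagreement between probes of the same gene: the SD of a single log2 ratio, derived from 1302 genes with a measurable pair of probes, was 0.25, and over the 509 genes whose probes were both at least as bright as that of Alas2 it was 0.19. It holds errors that differ between probes of the same gene. An error of labelling or hybridisation that these probes share cancels in it, so that part stays unmeasured, as does variation among pools of embryos. In these whole embryos, fewer cells of a type and less RNA per cell cannot be told apart. The 2 probes of Ep400 itself read 0.470 and 0.215 in wild-type and 0.0714 and -0.0295 in the mDom-/- pool, all under the floor, so the mutated gene could not check the labels. Markers of the labelled tissue were present on both arrays, with all 5 mesoderm genes, all 5 heart genes and 4 of 5 neural genes above the floor (the exception was Sox2).

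Alas2 was the only heme biosynthesis gene at least 2-fold apart. Of the 9 genes, 1 was at least 2-fold lower and 0 were at least 2-fold higher in the mDom-/- pool, beside 0.929% and 0.845% of all compared genes. Alad, the next enzyme, was second lowest and short of 2-fold, at 1.58-fold lower. The other 7 genes, Alas1 among them, lay between -0.30 and 0.15. In all, 8 of the 9 log2 ratios were below 0, against 50.5% of compared genes, and their median was -0.16, against -0.00361 for all compared genes. Of the 9, 6 lay within the probe-pair SD of 0.25 over all pairs (Alas1, Uros, Urod, Cpox, Ppox and Abcb10), and 5 lay within that of 0.19 over brighter pairs, which leaves out Cpox, so the sign of each of these carries little weight. The median without Alas2 and Alad was -0.15.

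**Figure D1:**
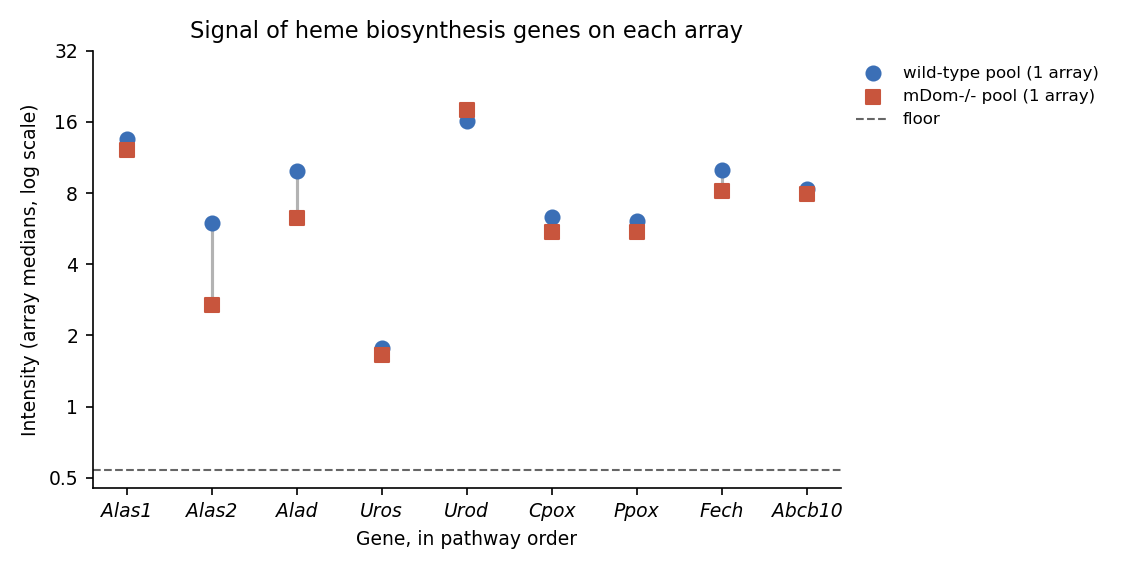
Signal of the 9 heme biosynthesis genes, in pathway order, in array medians on a log scale; circles are the wild-type array, squares the mDom-/- array, and the dashed line is the floor of 0.541. Both signals of every gene stand above the floor, and the widest gap is that of Alas2, from 5.99 to 2.70.

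Alas1 and Alas2 encode the forms of aminolevulinate synthase, the first and rate-limiting enzyme, which works inside the mitochondrion. Alas2 read 5.99 in the wild-type pool and 2.70 in the mDom-/- pool, 11.1 and 4.99 times the floor. The mDom-/- signal was thus 45.1% of the wild-type signal, a log2 ratio of -1.15 (2.22-fold lower). Among the 11926 genes measured on both arrays, 37 (0.31%) had a ratio this low or lower. With those genes split by brightness into 4 classes of equal size, 9 (0.302%) of the 2981 genes in the class of Alas2 were as low, and 0.537% of that class were at least 2-fold lower.

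Alas1, the form made in nearly all tissues, read 13.5 in the wild-type pool and 12.2 in the mDom-/- pool, a log2 ratio of -0.15. Its difference was smaller than the probe-pair SD, and 27.8% of the genes measured on both arrays had a ratio as low or lower. The ratio of Alas2 was 1.997-fold below that of Alas1 (a difference of log2 ratios of -0.998, where the probe-pair SD of such a difference is 0.35). Each of these genes had 1 probe, so neither ratio has a second measurement within its own array. Levels of different probes are not on a shared scale, so the genes are set side by side by their ratios.

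The sequences before the start sites of the red-cell form, the widely expressed form and the second lowest gene are shown because these are the genes on which the comparison turns. Each holds the 250 bases before the outermost RefSeq start of the gene in GRCm38.p6, written 5′ to 3′ on the strand of the gene. Alas2 lies at chrX:150547167-150547416 on the plus strand, Alas1 at chr9:106247955-106248204 on the minus strand and Alad at chr4:62520064-62520313 on the minus strand. Capitals mark AGATAA or TGATAA, letters bound by GATA factors, and CACCC, letters bound by Krüppel-like factors, searched on both strands, so letters found on the opposite strand appear as their reverse complement.
Alas2: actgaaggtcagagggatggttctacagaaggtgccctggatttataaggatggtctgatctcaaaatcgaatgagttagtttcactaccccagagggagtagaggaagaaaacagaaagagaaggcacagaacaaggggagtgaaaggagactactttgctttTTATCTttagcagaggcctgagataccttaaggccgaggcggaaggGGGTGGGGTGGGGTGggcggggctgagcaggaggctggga
Alas1: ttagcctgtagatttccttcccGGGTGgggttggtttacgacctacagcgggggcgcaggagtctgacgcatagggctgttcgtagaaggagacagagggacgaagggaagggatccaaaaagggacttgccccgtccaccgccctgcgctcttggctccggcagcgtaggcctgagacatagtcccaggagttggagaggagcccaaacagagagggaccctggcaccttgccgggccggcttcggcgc
Alad: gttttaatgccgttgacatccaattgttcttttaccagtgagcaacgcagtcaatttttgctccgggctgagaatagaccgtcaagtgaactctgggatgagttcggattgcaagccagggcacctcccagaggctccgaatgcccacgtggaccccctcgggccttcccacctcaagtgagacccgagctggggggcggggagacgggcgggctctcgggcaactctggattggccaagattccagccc
The Alas2 window held AGATAA once, on the opposite strand at 86 to 81 bases before the start, and CACCC 3 times between 40 and 26 bases before it. The Alas1 window shown held only CACCC, once, and the Alad window shown held none of these letters. Before a further, inner RefSeq start, CACCC was found for Alas1 (203 to 199 bases before it) and for Alad (47 to 43 bases before it). Of 32817 mouse windows of the same length, 9.99% held AGATAA, 16.6% held AGATAA or TGATAA, 52% held CACCC and 6.92% held CACCC at least 3 times. A match is a description of the sequence, not a binding site.

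RefSeq windows were given for 8 of the 9 genes, 11 windows in all. Outside Alas2, TGATAA was found before the outermost start of Cpox (86 to 81 bases before it, with CACCC 4 times) and before an inner start of Uros. Cpox, with both kinds of letters, had a log2 ratio of -0.20, and Uros had -0.09. Both kinds of letters were held by 7.12% of the 32817 mouse windows. The part of these letters in the ratios was not tested. Fech was not among the windows used here.

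Alad, Uros and Urod work in the cytosol, where aminolevulinate is built up into a closed ring and trimmed. Alad encodes aminolevulinate dehydratase, which joins a pair of aminolevulinate molecules into porphobilinogen. It read 9.89 in the wild-type pool and 6.28 in the mDom-/- pool, or 63.5% of wild-type, a log2 ratio of -0.66. Among genes measured on both arrays 2.38% were as low or lower, and in its own class of brightness, where 0.268% of genes were at least 2-fold lower, 1.04% were. It passed a 1.5-fold rule, as did 4.35% of all compared genes in that direction.

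Uros encodes the synthase that closes the ring. Its probe read closest to the floor, at 1.76 in the wild-type pool and 1.66 in the mDom-/- pool, 3.26 and 3.07 times the floor, a log2 ratio of -0.09. Urod encodes the decarboxylase that follows. It was the only one of the 9 that read higher in the mDom-/- pool, 16.1 in wild-type and 17.9 in mDom-/-, a log2 ratio of 0.15, with 74.4% of genes as low or lower. Neither difference exceeded the probe-pair SD.

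Cpox, Ppox and Fech carry out the last steps, in the mitochondrion. Cpox encodes coproporphyrinogen oxidase and read 6.33 in wild-type and 5.50 in mDom-/-, a log2 ratio of -0.20. A second Cpox probe read 0.190 and 0.0446, under the floor on both arrays, and gave no ratio. Ppox encodes protoporphyrinogen oxidase and read 6.09 and 5.46, a log2 ratio of -0.16. Fech encodes ferrochelatase, which inserts the iron, and read 10.1 and 8.17, or 81.3% of wild-type, a log2 ratio of -0.30. The last 3 enzymes thus lay close together, from -0.30 to -0.16, with Fech beyond either probe-pair SD and Cpox beyond that of the brighter pairs only. For Fech, 14.4% of genes measured on both arrays were as low or lower.

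Abcb10 encodes an ABC transporter of the mitochondrial inner membrane that is needed for heme production in red cells. It read 8.34 in the wild-type pool and 7.93 in the mDom-/- pool, a log2 ratio of -0.07, with 38.9% of genes as low or lower. Along the pathway the ratios did not step down toward its end: the first and second reactions held the 2 lowest genes, and the genes after them lay between -0.30 and 0.15.

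**Figure D2:**
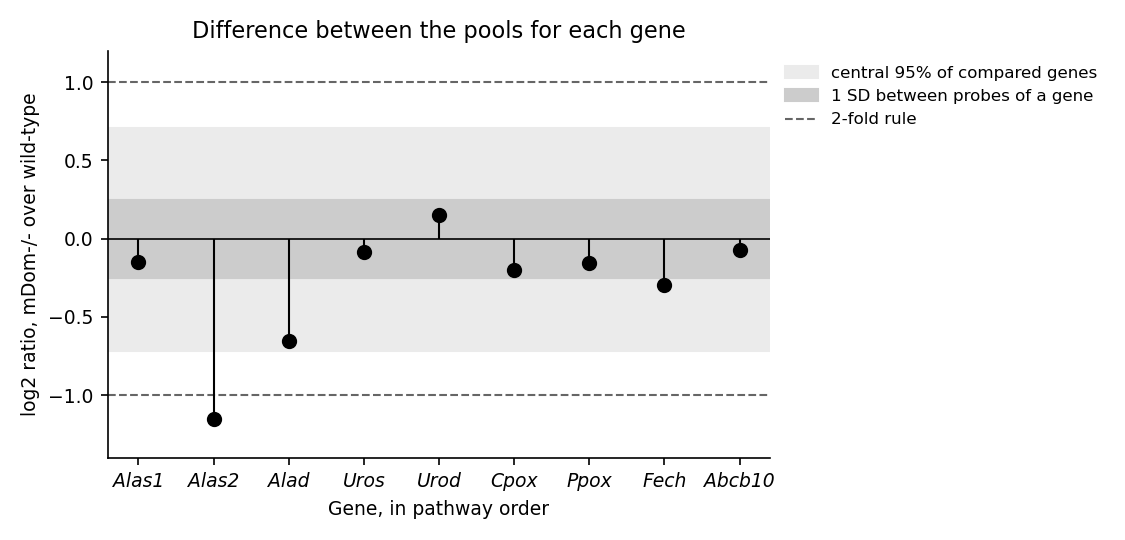
The log2 ratio of each gene, mDom-/- over wild-type, in pathway order; the light band holds the central 95% of compared genes (-0.72 to 0.71), the dark band is 1 SD over all probe pairs (0.25) on either side of 0, and dashed lines mark 2-fold. Alas2 (-1.15) lies outside the light band, Alad (-0.66) near its edge, and 6 genes lie in the dark band.

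The embryonic globins, which bind the heme made in primitive red cells, differed by much more than any gene of the pathway. Hbb-y, the embryonic beta-like globin, read 133.8 in wild-type and 5.12 in mDom-/-, and Hba-x, the embryonic alpha-like globin, read 199.9 and 22.4. Their log2 ratios were -4.71 and -3.15, against -1.15 for Alas2. The difference between these ratios has no test.

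Many of the other red cell markers and erythroid regulators read dim, and those measured on both arrays were less than 2-fold apart. Of 12 red cell markers, 8 had a probe, 7 were above the floor in the wild-type pool and 3 in the mDom-/- pool, and their summed intensity was 31.7 in wild-type and 29.7 in mDom-/-. Such sums add signals of probes that differ in sensitivity. Most of the red cell sum came from Ermap, a red cell surface protein (17.9 and 18.2), and Rhag, a membrane channel of red cells (9.57 and 9.49, a log2 ratio of -0.01). The sum thus says little of the other markers. Over the 7 compared markers the median log2 ratio was -0.06, or 0.03 among those measured on both arrays. It depended on the floor and was -0.82 with the floor at the 25th percentile. Epb42, a red cell membrane protein, was also measured on both arrays (1.03 and 1.41). Hemgn, Kel, Rhd and Slc4a1, between 0.563 and 0.924 in wild-type, were under the floor in the mDom-/- pool, where the signals of Hemgn and Slc4a1 were below 0. Of 10 erythroid regulators, 7 were compared and 0 were 2-fold apart. Their median was -0.39, or -0.21 among genes measured on both arrays. Of the 7, 5 lay below 0, or 4 with 75th percentile scaling, beside 50.5% of all compared genes. Gata1, the master regulator of red cell genes, read 0.725 in wild-type and 0.219, under the floor, in mDom-/-, at least 1.34-fold lower. Klf1, a Krüppel-like factor of red cells, was under the floor on both arrays (0.132 and 0.0874). Lmo2 and Ldb1, partners of Gata1 in 1 complex, had log2 ratios of -0.39 and -0.41, and Tal1, another partner, had -0.02. The part of red cell number in the ratio of Alas2 was not tested.

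**Figure D3:**
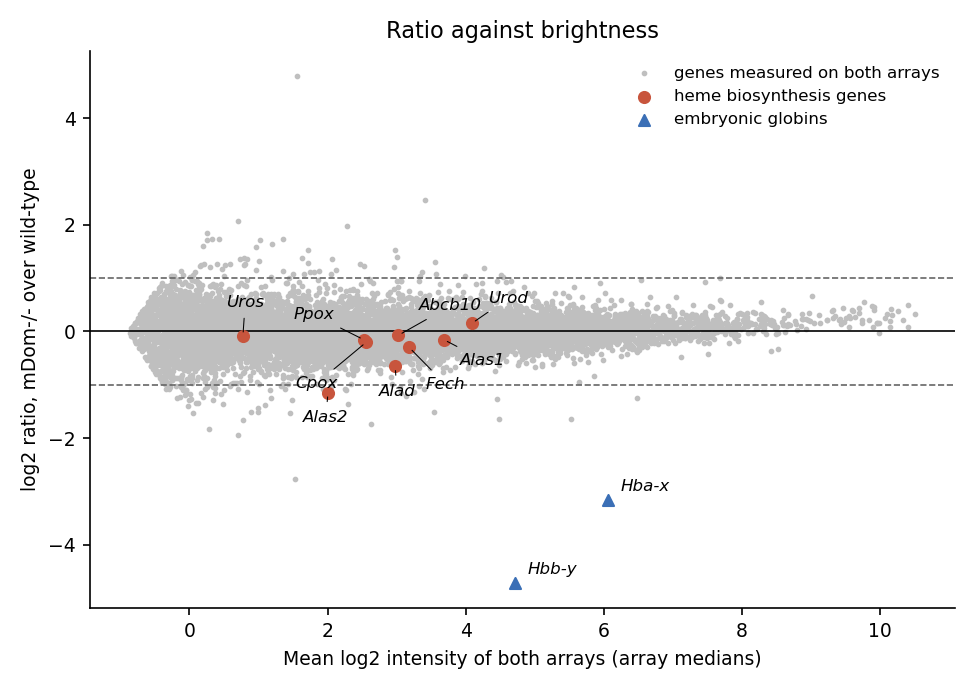
The log2 ratio, mDom-/- over wild-type, against the mean log2 intensity of both arrays for the 11926 genes measured on both (grey), with the heme biosynthesis genes as circles and the embryonic globins as triangles. Ratios spread more widely among dim genes; Alas2 stands at the lower edge of the genes of its brightness, and Hbb-y (-4.71) and Hba-x (-3.15) lie far below it.

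Genes that supply or use the pathway were grouped in lists by function. Over all these lists 92 of 123 genes were compared. At least 2-fold lower were 2, the globins above, and at least 2-fold higher were 0, beside the backgrounds of 0.929% and 0.845%. Without the globins, the 90 compared genes had a median log2 ratio of -0.04 and ranged from -0.77 to 0.76. Of these 90, 6 were at least 1.5-fold lower (Flvcr2, Hccs, Hebp1, Hemgn, Heph and Kel) and 2 at least 1.5-fold higher (Hscb and Tspo), beside 4.35% and 4.09% of all compared genes.

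Carriers into the mitochondrion went both ways. The list of mitochondrial transport had 7 of 9 genes compared, 0 of them 2-fold apart, and a median of 0.13. Slc25a37, the mitoferrin that brings iron into the mitochondria of red cell precursors, read 6.64 in wild-type and 4.86 in mDom-/- (-0.45). Slc25a38, which carries the glycine used by Alas2, read 55.2 and 73.8 (0.42, and 0.18 for its second probe). Abcb6, a porphyrin transporter, had -0.25, and Tspo, an outer membrane protein that binds porphyrins, read 4.13 and 7.00 (0.76). Among 8 genes of succinyl-CoA and glycine supply the median was -0.03 (-0.08 with loess and -0.15 with the mean over probes), with the lowest values for Dld (-0.37) and Ogdh (-0.34), subunits of the oxoglutarate dehydrogenase complex, and the highest for Shmt2 and Sucla2 (both 0.07). Second probes of Sucla2 and Suclg2 had -0.35 and -0.43, against 0.07 and -0.02 for the brighter probes, so the probes disagreed.

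Iron handling genes lay on both sides of 0. In the uptake, storage and export list 12 of 16 genes were compared, 7 of them below 0, beside 50.5% of all compared genes. Their median was -0.04 (-0.13 with quantile normalization and -0.16 with loess). Tfrc, the transferrin receptor through which red cell precursors take up iron, read 2.99 and 2.53 (-0.24), and Trf, transferrin itself, 8.83 and 6.20 (-0.51). Heph, a copper oxidase that helps iron leave cells, was lowest at -0.68, with -0.63 for its second probe. Fth1, the ferritin heavy chain, had 0.30 and Steap3, which reduces iron in endosomes, 0.25. The iron sensors Aco1 and Ireb2, whose proteins bind iron-responsive elements such as that of the Alas2 transcript, had -0.38 and -0.18, and Hjv had -0.19. Iron-sulfur cluster assembly, on which ferrochelatase depends for its own cluster, had a median of 0.07 over 12 compared genes. Of these, 9 lay above 0 (7 with quantile normalization or loess), where 50.5% of all compared genes lay below 0. Hscb, a cochaperone of cluster transfer, read 14.4 and 24.5 (0.76), and the scaffold gene Iscu 34.6 and 50.4 (0.54), while Isca1 and Fdx1 had -0.11 and -0.08.

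Genes of heme breakdown had a median of -0.17 over 4 genes, none 2-fold apart. Of these, 4 lay below 0, or 3 with 75th percentile scaling, quantile normalization or loess, beside 50.5% of all compared genes. Hmox1, the inducible heme oxygenase, read 16.6 in wild-type and 12.6 in mDom-/- (-0.40), and Hmox2, its constitutive form, 22.8 and 18.7 (-0.29). Blvra and Blvrb, the biliverdin reductases, had -0.05 and -0.01, well within the probe-pair SD. In the heme export and binding list 7 of 8 compared genes lay below 0, or 6 with those scalings, with a median of -0.26. Flvcr2, a transporter, was lowest at -0.68 from dim signals (0.975 and 0.607), Hebp1, which binds heme, read 11.4 and 7.47 (-0.61), and Slc48a1, which moves heme out of lysosomes, had 0.27. Slc46a1, next highest, had -0.01.

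Genes that attach or use heme elsewhere lay on both sides of 0. Hccs, which attaches heme to cytochrome c, read 2.23 and 1.31 (-0.77), while Cox10 and Cox15, which make the heme of cytochrome oxidase, had 0.00060 and -0.04. Among 8 compared heme-using enzymes and their partners the median was 0.06, from -0.46 for Cyp51 (-0.40 for its second probe), a sterol demethylase, and -0.15 for Cat, catalase, to 0.30 for Cyb5a and 0.37 for Cyc1, a cytochrome of the respiratory chain. With loess that median was -0.02. In the heme sensing and control list the median was -0.00196 over 12 compared genes (0.02 with 75th percentile scaling). Bach1, a repressor that heme releases from DNA, had -0.01 and a second probe -0.43, so its probes disagreed. Eif2ak1, the kinase that halts translation when heme is short, was above the floor only in wild-type (0.596 and 0.111), at least 1.102-fold lower. Mafk had -0.31 from signals close to the floor (0.708 and 0.570), and Clpx, which acts on aminolevulinate synthase in mitochondria, had -0.17. Nfe2, also close to the floor (0.624 and 0.777), and Nrf1 (1.22 and 1.52) both had 0.32.

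**Figure D4:**
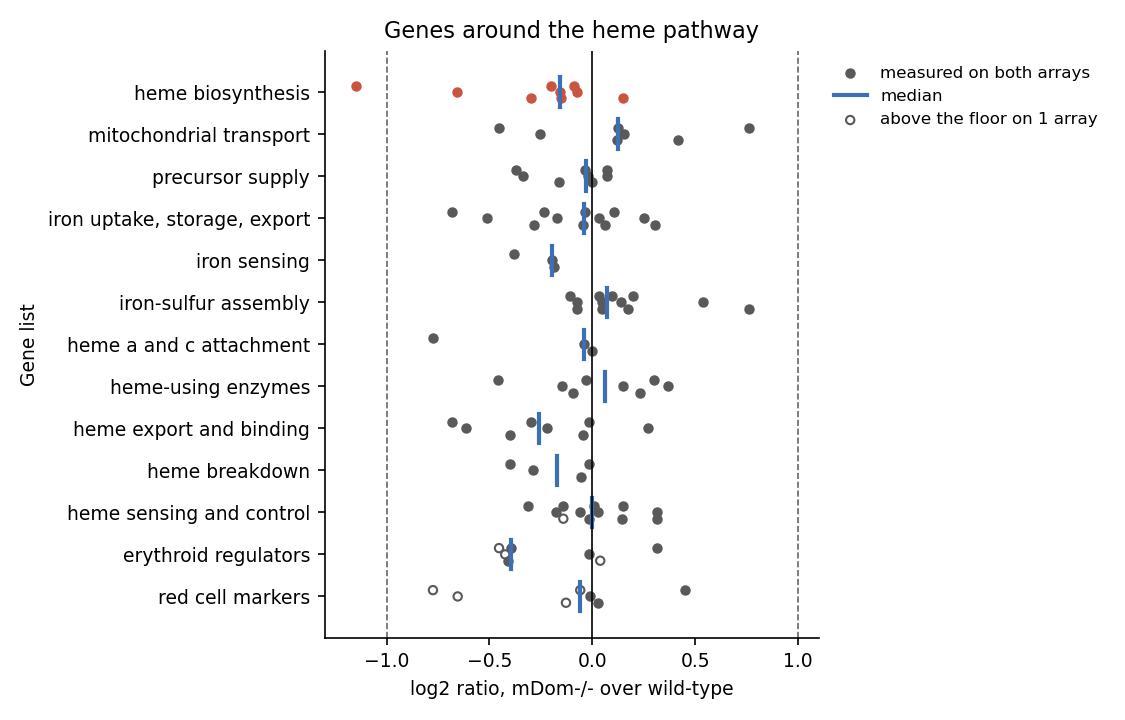
The log2 ratio, mDom-/- over wild-type, of each compared gene of the heme biosynthesis genes (top row) and of 12 surrounding lists; filled points were measured on both arrays, open points are bounds with 1 array above the floor, bars are medians and dashed lines mark 2-fold. Alas2 at -1.15 is the only point beyond a dashed line, the globins not being drawn.

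Markers of other cell types that the embryos could hold are given beside these values. Of 6 endothelial markers, all with a probe, 5 were above the floor in wild-type and 3 in mDom-/-, with summed intensities of 49.5 and 37.1. Emcn, an endothelial surface protein, read 7.02 and 3.29 (2.13-fold lower), Pecam1 was at least 2.11-fold lower and Cldn5 at least 1.97-fold lower. Kdr and Tek, receptors of endothelium, had -0.29 and -0.18. All 5 compared endothelial genes lay below 0, beside 50.5% of all compared genes, and 2 were at least 2-fold lower, beside 0.929%. Their median was -0.98, or -0.29 among genes measured on both arrays. Of 10 visceral endoderm and yolk sac markers, 9 were above the floor on both arrays, with summed intensities of 595 and 688. Its lowest were Cubn (-0.62) and Afp (-0.33) and its highest Apoa4 (0.79) and Ttr (0.59). Of 6 macrophage markers with a probe, 2 were above the floor in wild-type and 1 in mDom-/-, with summed intensities of 5.49 and 4.64, and of 4 platelet markers with a probe 1 and 0 were. The neural list had a median of -0.17, the mesoderm list 0.09, the heart list 0.04 (-0.03 with quantile normalization and -0.10 with loess) and the trophoblast list, with 2 of 6 genes compared, -0.04. The part of these cell types in the ratios of the heme biosynthesis genes was not tested.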

How the data were processed

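Total RNA was measured on 1 array per pool. The deposited intensity values were linear, 1 column per array, made with the CodeLink System Software per the labels. Its version, background correction, scaling and centring are not stated there. The values held negative numbers and had medians of 1.0503 (wild-type) and 1.0485 (mDom-/-). From these near-equal medians they were taken to be scaled within each array, which the labels do not state. The code -9999, on 105 and 106 probes, was taken as missing.

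Each array was divided by its median, and the floor was the higher of the arrays' 40th percentiles. A probe was compared with at least 1 array above the floor. If only 1 was, the ratio is a bound ("at least N-fold"). A gene took its brightest compared probe. Of 36227 probes, 21615 had 1 symbol in GEO's platform annotation, 681 had several and 13931 had none, and 21487 were brought to current symbols through RefSeq (GRCm38.p6). Probes with several symbols named no gene, and every heme gene had exactly 1 compared probe. Promoter windows came from RefSeq.

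The members and lists were chosen with earlier results of these data known. Named genes were every member, each list gene past 2-fold, up to 2 genes at either end of a list, and genes of known roles. Genes alike in pattern were not sought, since 2 arrays give 1 ratio per gene. Scripts ran in Python 3.11.15 with pandas 2.3.3 and statsmodels 0.14.6 and were tested on simulated data. Alternatives were 3 other scalings and loess (span 0.3), other floors, probe means, genes measured on both arrays, and rules of 1.5-fold and 3-fold.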

Additional observations from a re-analysis of the deposited data

How the results depend on the processing

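No paired analysis was possible because each group had 1 array and no test was run. The 9 heme biosynthesis genes kept their sign in the main setting and in each of the 9 alternatives of scaling, floor and probe choice, a count added after the data had been seen. Several of these alternatives could not change the 9 ratios. With the lower floor, no floor, probe means or genes measured on both arrays, every ratio stayed identical. This was fixed by each gene having 1 compared probe that stood above the floor on both arrays. Leaving out the rescaling shifted all ratios alike. Alas2 stayed between -1.15 and -1.12 and Alad between -0.66 and -0.63, and the median of the 9 ranged from -0.16 to -0.13. Uros moved to -0.00012 with the floor at the 60th percentile, which lies just under its wild-type signal, and the other ratios stayed identical there. Apart from Uros at that floor, only quantile normalization and loess changed the ratios by unequal amounts, so the count of kept signs rests on few settings. With a 1.5-fold rule 2 heme biosynthesis genes were lower and with a 3-fold rule 0 were. Over all genes, 522 were at least 2-fold lower and 533 higher with the floor at the 25th percentile, 28 and 38 at the 60th, 1129 and 1200 with no floor, and 71 and 65 among genes measured on both arrays. They were 571 and 537 with the 1.5-fold rule and 23 and 22 with the 3-fold rule, against 122 and 111 as reported. In the surrounding lists, 9 genes were at least 2-fold lower with the floor at the 25th percentile, which added the dim genes Hemgn, Kel, Gata1, Eif2ak1, Rhd, Slc4a1 and Zfpm1 to the 2 globins. With no floor 7 were lower and 1 higher, and with the 1.5-fold rule 8 were lower and 2 higher. The red cell marker median was -0.82 with the floor at the 25th percentile, -0.21 with none and 0.00868 at the 60th. Signal over background limits what can be said of these dim genes, while the 9 heme biosynthesis genes were at least 3.07 times the floor on both arrays.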
